A study of Rattus norvegicus with 12 samples.

Results

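The proteasome genes of the rat hippocampus were examined in 2 selectively bred lines. The members were all genes of the array table whose Entrez identifier carries a rat symbol beginning with Psma, Psmb, Psmc, Psmd, Psme, Psmf or Psmg, and 38 of the 9962 genes measured met this rule. Bred High Responder (bHR) rats come from a line selected for high locomotion in an unfamiliar field, and bred Low Responder (bLR) rats from one selected for low locomotion. All were adult males of generation F4, aged 102 to 107 postnatal days per the sample labels, and each array held RNA of the whole hippocampus of 1 rat. There were 6 rats per line, of which 5 bHR and 5 bLR arrays had passed the submitters' quality control and entered the comparisons. Among these, bHR rats had 1178 to 1328 beam breaks and bLR rats 319 to 557. Whole tissue mixes neurons, glia and vessels, so that fewer cells of a type and less RNA per cell cannot be told apart.

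The proteasome is the main protease of the cytosol and nucleus. Its barrel-shaped core is built from outer rings of alpha subunits, which gate the entrance, and inner rings of beta subunits, of which 3 kinds cut peptide bonds. A regulatory cap recognises ubiquitin-tagged proteins through its non-ATPase subunits and unfolds them with a ring of ATPases. Inflammatory signals replace the cutting subunits by immune versions, whose peptides feed antigen presentation. In the hippocampus, ubiquitin-dependent breakdown by this complex takes part in the turnover of synaptic proteins and in synaptic plasticity.

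A list of the family by role holds 50 genes, and the 38 of them that were measured are the members. They comprised 5 alpha subunits, 4 structural beta subunits, 2 constitutive cutting subunits, 2 immune cutting subunits, 5 cap ATPases, 9 cap non-ATPase subunits, 2 further activators and the inhibitory protein Psmf1, 6 assembly chaperones and 2 genes that are no subunit but share the prefix. Psmb6, Psmb8, Psme1, Psme2 and Psmd14 are among the 12 listed genes not analysed here. The signal of most members was strong: 36 of the 38 lay above the median gene, 27 in the top 25% of genes, and only Psmb9 and Psmc3ip in the lowest 25%. Signals of different genes depend on their probes and do not rank the amounts of the subunits.

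Control values differed between arrays. On bLR replicates 2 and 3 and bHR replicate 6, the spiked bacterial control dap had a 5' minus 3' difference of -1.82 to -1.36 log2 units between its probe sets, against -0.42 to -0.072 on the other 7 arrays, and these 3 are called the arrays of low dap. The dap transcript is added to the sample and beta-actin is the tissue's own, and whether the differences arose in the tissue RNA or in its labelling was not tested. For beta-actin the same difference reached -3.65 to -2.30 on those 3 arrays, against -1.95 to -1.36 on the other 7. By line, bHR averaged -1.76 ± 0.36 and bLR averaged -2.21 ± 1.01 (SD, 5 arrays per line), and the two-sided exact permutation p was 0.437, where 0.0079 is the smallest this design allows. On the 2 failed arrays, which were left out, the median member level was 6.29 (bHR replicate 1) and 6.53 (bLR replicate 5), against 7.19 to 7.61 on the passing arrays. Of the hippocampal neuron markers used to check the tissue, 11 of 13 were measured, 0 lay in the lowest 25% of signal, and the means were higher in bHR for 4 and lower for 7.

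The first comparison asked whether proteasome transcripts differ with the line of the rat. No member passed limma's test (0 of 38 at an adjusted p of 0.05), nor did any gene on the array (0 of 9962, a background of 0%). The smallest adjusted p among members was 0.992, shared by most of them. Means were higher in bHR for 22 members and lower for 16, with a median difference of 0.011 on the log2 scale, against a median of 0.00078 over all genes, of which 50.4% had the higher mean in bHR. With the 2 failed arrays included, 12 members had the higher and 26 the lower mean in bHR, and with 1 array left out 17 to 26 had the higher. At an unadjusted limma p under 0.05 there were 2 members, where the background was 2.94% of genes. Psma2 was higher in bHR (background 1.1%) and Psmb3 lower (background 1.84%). The lines overlapped in every one of the 38 members, where the background of genes without overlap was 0.291%. Differences were below 0.1 in 31 members (81.6%), against 84.1% of all genes.

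Confidence intervals, taken 1 gene at a time, bounded the differences, at 0.5 and 0.25 for a smaller share of members than of all genes. The 95% confidence interval of all 38 members lay inside a 2-fold change up or down. It stayed within 0.5 on the log2 scale for 35 members (92.1%), against 97.1% of all genes. For 26 members (68.4%) it stayed within 0.25, against 76.7% of all genes. The 3 that reached past 0.5 were Psmg3 (-0.63 to 0.16), Psmd1 (-0.53 to 0.38) and Psma2 (0.0041 to 0.53).

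**Figure D1:**
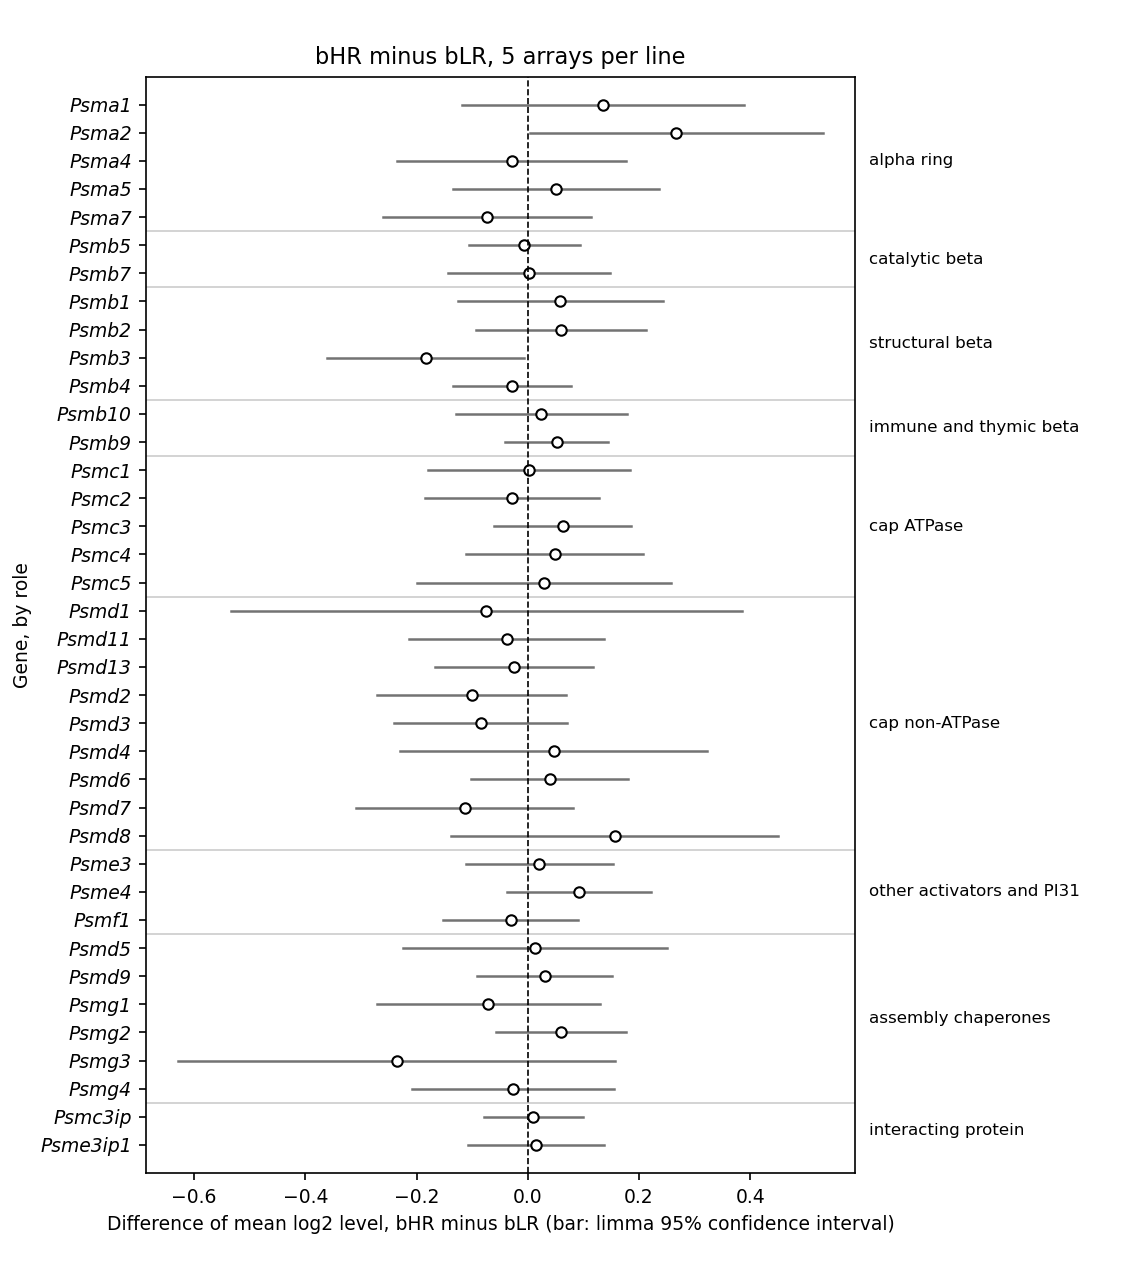
Difference of the mean log2 level, bHR minus bLR, for the 38 proteasome genes grouped by role (open circles, none with an adjusted p under 0.05) with limma's 95% confidence interval, from 5 arrays per line. Only the intervals of Psma2 and Psmb3 leave out 0, and the points scatter on both sides of the dashed zero line in the larger role groups.

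Among the alpha subunits, the outer rings of the core, means were higher in bHR for 3 of 5 and lower for 2, and 0 passed. Psma2 had log2 levels of 7.65, 7.42, 7.48, 7.36 and 7.75 in bHR rats, against 7.34, 7.03, 6.96, 7.44 and 7.56 in bLR rats. The lines overlapped, and the low bLR values were those of replicates 2 and 3, which also had the deepest 5' losses. The difference was 0.27 (SE 0.12, limma unadjusted p = 0.0471, adjusted p = 0.992). It was 0.032 when the 3 arrays of low dap were left out (limma adjusted p = 0.997).

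Psma1 had levels of 7.67, 7.58, 7.90, 7.48 and 7.67 in bHR, against 7.52, 7.44, 7.20, 7.56 and 7.90 in bLR. Its highest values, one in each line, were nearly equal, and its lowest was bLR replicate 3. The difference was 0.14 (SE 0.12), and -0.0034 when the 3 arrays of low dap were left out. It was 0.055 without bLR replicate 3, and 0.23 with bLR replicate 6 left out instead. Psma5 differed by 0.051, Psma4 by -0.029 and Psma7 by -0.073.

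The cutting subunits of the constitutive core had the smallest differences of the role groups. Psmb5, which carries the chymotrypsin-like activity, had levels of 9.935, 10.010, 9.958, 9.894 and 9.990 in bHR, against 9.894, 10.002, 9.911, 10.083 and 9.928 in bLR. Each line reached above 10 on 1 or 2 arrays, and the ranges overlapped. The difference was -0.0062 (SE 0.046), with a 95% confidence interval of -0.11 to 0.094. Psmb7, which carries the trypsin-like activity, had levels of 9.02, 9.04, 9.03, 8.97 and 9.04 in bHR, against 9.03, 8.99, 8.77, 9.14 and 9.15 in bLR. The bHR rats lay close together, with an SD of 0.028, and the bLR rats spread around them, with an SD of 0.16. The difference was 0.0023 (SE 0.067), with an interval of -0.14 to 0.15.

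Of the 4 structural beta subunits, which complete the inner rings without cutting, 2 had a higher and 2 a lower mean in bHR. Psmb3 had levels of 8.59, 8.88, 8.47, 8.65 and 8.90 in bHR, against 8.87, 8.94, 8.89, 8.77 and 8.94 in bLR. Replicates 2, 4 and 5 of bHR lay below every bLR rat, and the other 2 bHR rats lay among them. The difference was -0.18 (SE 0.081, limma unadjusted p = 0.0432, adjusted p = 0.992). It was -0.21 when the 3 arrays of low dap were left out and -0.15 once the beta-actin difference was a term of the fit. The RefSeq gene table of assembly GRCr8 names 7 pseudogenes and 3 further like-named loci of Psmb3, more than for any other member, and binding of its probes to such copies was not tested.

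Psmb2 had levels of 8.22, 8.06, 8.28, 8.20 and 8.49 in bHR, against 8.23, 8.20, 8.09, 8.22 and 8.21 in bLR. The lowest and the highest rat were both bHR, and the difference was 0.059 (SE 0.070). It was -0.030 when the 3 arrays of low dap were left out. Psmb1 differed by 0.058 and Psmb4 by -0.029.

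The immune subunits replace the constitutive ones after interferon signalling. Psmb9, the immune counterpart of Psmb6, had levels of 4.59, 4.54, 4.55, 4.49 and 4.57 in bHR, against 4.58, 4.53, 4.42, 4.52 and 4.44 in bLR. Its signal was weak, with 9.19% of genes lower, and the lines overlapped; the difference was 0.052 (SE 0.042), and 0.032 without bLR replicate 3. Psmb10, the immune counterpart of Psmb7, had levels of 6.24, 5.96, 5.80, 5.99 and 6.00 in bHR, against 5.99, 5.96, 5.97, 6.06 and 5.89 in bLR. The highest and the lowest rat were both bHR, and the difference was 0.024 (SE 0.070, interval -0.13 to 0.18).

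**Figure D2:**
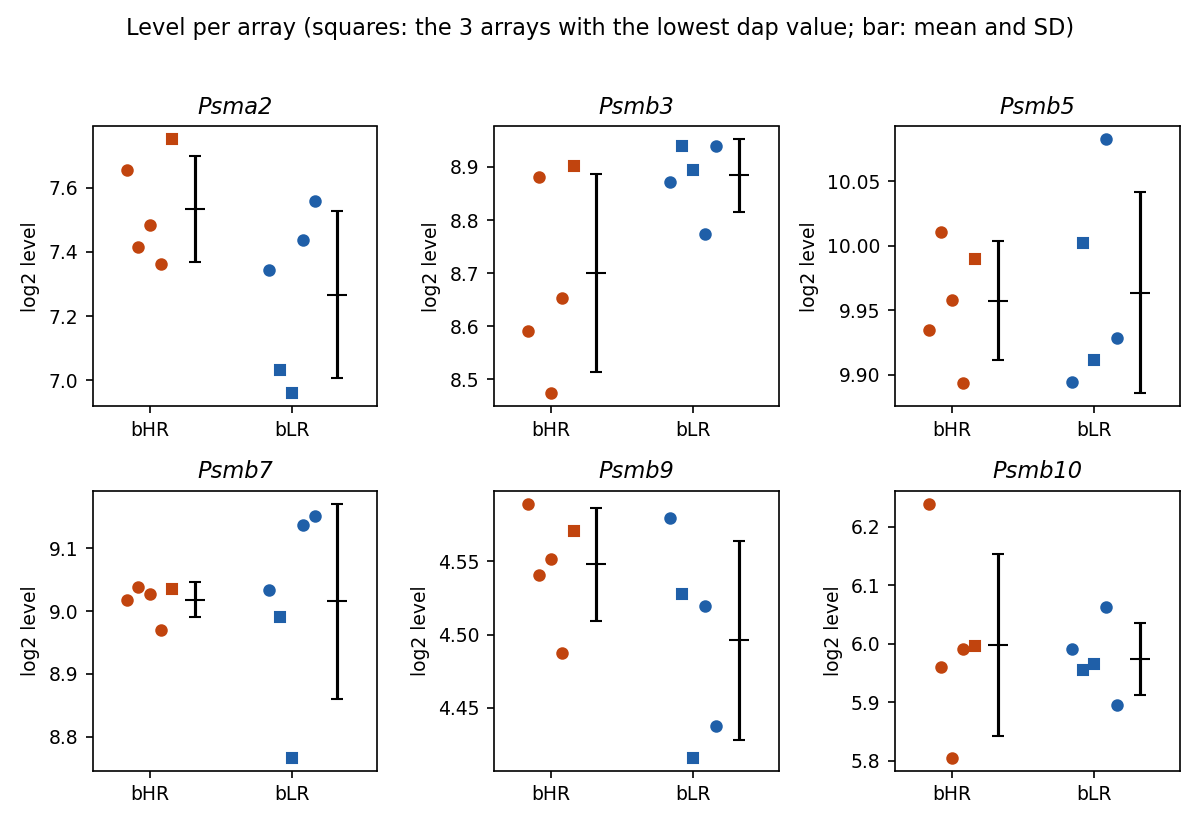
Log2 level per array of 6 proteasome genes in bHR (left of each panel) and bLR (right), with the mean and SD of 5 arrays per line beside the points and squares for the 3 arrays of low dap. The lines overlap in every panel, and the 2 low bLR values of Psma2 at 7.03 and 6.96 are squares; each panel has its own scale.

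Genes that serve antigen presentation were set beside the immune subunits. Of 13 listed, 11 were measured, 7 with a higher and 4 with a lower mean in bHR, and 0 passed (median difference 0.046). RT1-A2, a class I heavy chain, averaged 5.22 ± 0.32 in bHR, against 4.78 ± 0.34 in bLR (SD, 5 arrays per line), a difference of 0.44 (SE 0.18, limma unadjusted p = 0.0310, adjusted p = 0.992). The next by p were RT1-Da, a class II chain, with a difference of 0.082, the invariant chain gene Cd74 with 0.070, and the class I gene RT1-CE5 with 0.046. Tap1, the peptide transporter subunit whose gene is next to Psmb9 in the GRCr8 gene order, differed by -0.022. Like Psmb9, 5 of the 11 lay in the lowest 25% of signal. Microglial markers, the main immune cells of brain tissue, were split into 6 higher and 6 lower of 12 measured (median -0.013), with mean log2 levels of 5.84 to 5.97 per array in bHR and 5.87 to 5.98 in bLR. Lymphocyte and red cell markers had 4 higher and 3 lower of 7 measured, 5 of them in the lowest 25% of signal, with mean levels of 5.24 to 5.48 in bHR and 5.20 to 5.46 in bLR. Endothelial markers had 3 higher and 3 lower of 6 measured (median 0.0091). Markers of the choroid plexus, which can cling to a dissected hippocampus, were higher in bHR for 7 of 7 measured (median 0.16), with mean levels of 5.52 to 6.60 in bHR and 5.30 to 6.23 in bLR, and 0 passed; their part in the differences of the members was not tested.

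The ATPase ring of the cap had higher means in bHR for 4 of 5 members, all by less than 0.1. Psmc3 had levels of 8.21, 8.27, 8.19, 8.16 and 8.26 in bHR, against 8.01, 8.15, 8.09, 8.23 and 8.31 in bLR. The bLR rats spanned the whole bHR range, and the difference was 0.062 (SE 0.056). It was 0.025 without bLR replicate 1, and 0.10 with bLR replicate 6 left out instead. Psmc4 had levels of 8.22, 8.20, 8.31, 8.15 and 8.12 in bHR, against 8.05, 8.09, 8.03, 8.41 and 8.19 in bLR, a difference of 0.048 (SE 0.072). Replicates 1, 2 and 3 of bLR lay below all bHR rats and replicate 4 lay above them. The difference was 0.018 without bLR replicate 3 and 0.11 without bLR replicate 4. Psmc5 differed by 0.029, Psmc1 by 0.0030 and Psmc2 by -0.029.

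The non-ATPase subunits of the cap, which hold the ubiquitin receptors and the lid, had higher means in bHR for 3 of 9 and lower means for 6. Psmd2, a large scaffold of the base of the cap, had levels of 8.16, 8.27, 8.17, 8.26 and 8.33 in bHR, against 8.11, 8.41, 8.57, 8.23 and 8.37 in bLR. The 3 highest rats were bLR and so was the lowest; the difference was -0.10 (SE 0.077). It was -0.044 without bLR replicate 3, -0.023 when the 3 arrays of low dap were left out and -0.032 once the beta-actin difference was a term of the fit. Psmd7, a lid subunit that pairs with the deubiquitinase Psmd14, had levels of 7.71, 7.73, 7.72, 7.72 and 7.79 in bHR, against 7.76, 7.91, 8.19, 7.61 and 7.76 in bLR. The bHR rats lay within an SD of 0.035 and the bLR rats within 0.22, with bLR replicate 3 far above the rest. The difference was -0.11 (SE 0.089), -0.028 without bLR replicate 3, and 0.0065 when the 3 arrays of low dap were left out. The remaining differences were 0.16 for Psmd8, 0.046 for the ubiquitin receptor Psmd4, 0.040 for Psmd6, -0.025 for Psmd13, -0.038 for Psmd11, -0.074 for Psmd1 and -0.085 for Psmd3.

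Among the alternative activators and the inhibitory protein, 2 had a higher and 1 a lower mean in bHR. Psme4, which caps the core without ubiquitin recognition, had levels of 5.60, 5.79, 5.58, 5.64 and 5.70 in bHR, against 5.54, 5.75, 5.55, 5.48 and 5.52 in bLR. All bHR rats lay above all bLR rats but replicate 2, and the difference was 0.092 (SE 0.059). Psme3, a nuclear activator, differed by 0.021 and Psmf1 by -0.031.

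The assembly chaperones guide the building of the rings and leave the finished particle. Psmg3, a chaperone of the alpha ring, had levels of 5.53, 5.53, 6.26, 5.42 and 5.64 in bHR, against 5.60, 6.06, 5.59, 6.36 and 5.94 in bLR. Replicate 4 was the highest rat of each line, and the difference of -0.24 (SE 0.18) was the second in size of the 38, with an SD of 0.34 in bHR and 0.32 in bLR. It was -0.38 without bHR replicate 4 and -0.12 without bLR replicate 4. Psmg2, which acts in a pair with Psmg1, had levels of 5.96, 5.89, 6.03, 5.97 and 5.90 in bHR, against 5.90, 5.94, 5.90, 5.99 and 5.72 in bLR, a difference of 0.060 (SE 0.053). Its lowest rat was bLR replicate 6, without which the difference was 0.017. Psmg1 differed by -0.071, Psmg4 by -0.027, and the cap chaperones Psmd9 and Psmd5 by 0.030 and 0.013.

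The 2 genes that only share the prefix differed by less than 0.1. Psme3ip1, which encodes a partner of Psme3, had levels of 7.30, 7.15, 7.16, 7.36 and 7.11 in bHR, against 7.28, 7.11, 7.18, 7.20 and 7.22 in bLR, a difference of 0.015 (SE 0.056). Psmc3ip, a cofactor of meiotic recombination, differed by 0.0097 at weak signal. Without these genes the median difference of the other 36 was 0.0078.

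Variation among arrays of a line is described next. The median within-line SD of the members was 0.13 on the log2 scale, against 0.096 over all genes, and it ran from 0.051 for Psmc3ip to 0.39 for Psmd1. On bHR replicate 6, 29 of the 38 members lay above their own mean over the 10 arrays, where 43.9% of all genes did. On bLR replicate 6, 24 members did, where 42.1% of all genes did. On bHR replicate 5 the count was 10 (49.0% of all genes) and on bLR replicate 1 it was 12 (44.3% of all genes), with median deviations of -0.055 and -0.061. These medians compare with -0.0019 and -0.011 over all genes on the same arrays. On bLR replicate 3 the members ran apart, from -0.55 for Psmd8 to 0.44 for Psmd1.

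**Figure D3:**
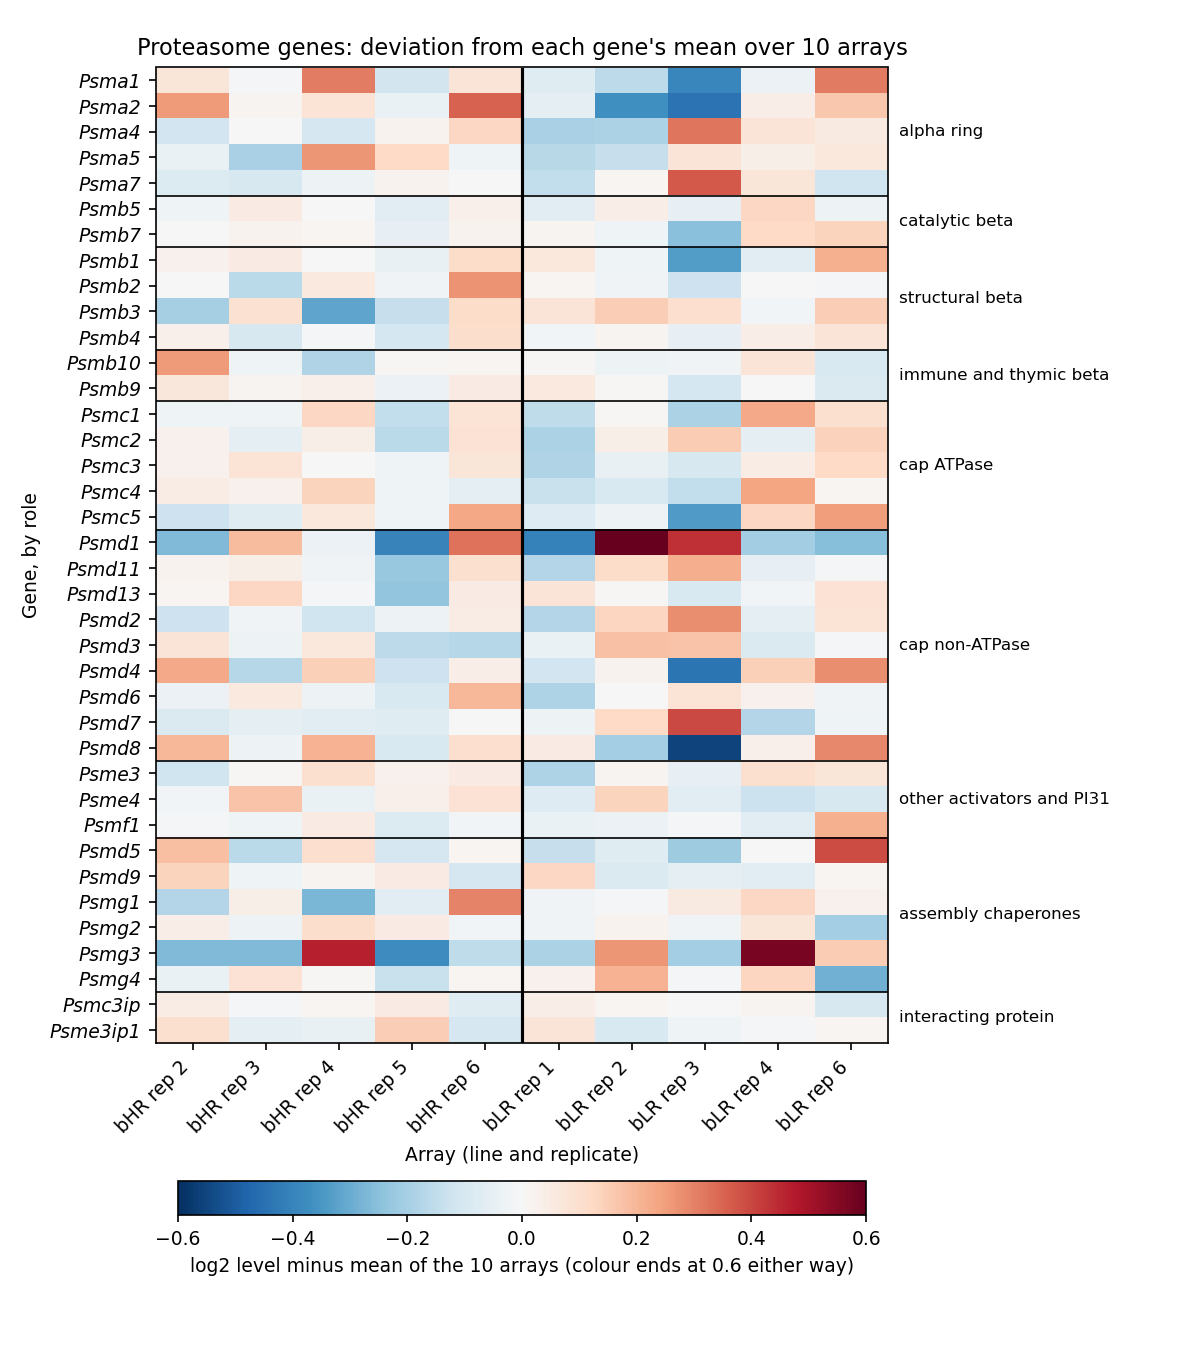
Deviation of each proteasome gene (rows, by role) from its mean log2 level over 10 arrays (columns, bHR left and bLR right of the thick line); red is above and blue below the mean. No column block separates the lines, and bLR replicate 3 holds both deep blue (Psmd8, -0.55) and deep red (Psmd1, 0.44) cells.

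Which members followed these control values was tested next, by the slope of each gene on the beta-actin 5' minus 3' value with line as a term. Of the 38 members 7 passed limma's test over all genes (adjusted p under 0.05), 2 with a positive and 5 with a negative slope. The background was 13.3% of genes called, 5.28% positive and 7.98% negative. A negative slope means a higher level where the 5' loss was deeper. With the GAPDH value in place of that of beta-actin, also 7 members were called, with a background of 9.3% of genes, and 6 of the 7 were called with both.

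Of the 5 negative slopes, 4 belonged to the 9 non-ATPase subunits of the cap. In the same group Psmd8, Psmd4 and Psmd13 had positive slopes (0.27, 0.19 and 0.032), of which only that of Psmd8 was called. Psmd1, the other large scaffold of the base, had 6.31 in bHR replicate 6 and 6.60 and 6.42 in bLR replicates 2 and 3, against 5.58 to 6.18 on the other 7 arrays. All 3 arrays of low dap lay above the rest, and the slope was -0.44 per log2 unit (SE 0.080, limma adjusted p = 0.0042). For Psmd7, whose levels are given above, the slope was -0.19 (SE 0.035, limma adjusted p = 0.0054). For Psmd2 it was -0.15 (limma adjusted p = 0.0125).

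Psmd11, a lid subunit, had 7.55 in bHR replicate 6 and 7.57 and 7.68 in bLR replicates 2 and 3, against 7.23 to 7.49 on the other 7, with a slope of -0.15 (limma adjusted p = 0.0337). Here too the 3 arrays lay above all others. Psma7 had 9.71 in bLR replicate 3 and 9.20 to 9.42 elsewhere, so that its slope of -0.15 (limma adjusted p = 0.0413) came with a single array outside the range of the others.

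The 2 positive slopes belonged to a cap and a core subunit. Psmd8, a lid subunit, had 7.84 in bHR replicate 6 and 7.54 and 7.19 in bLR replicates 2 and 3, against 7.65 to 8.03 on the other 7. Both bLR arrays lay below the rest and bHR replicate 6 among them, with a slope of 0.27 (SE 0.057, limma adjusted p = 0.0088). For Psmb7 the slope was 0.12 (limma adjusted p = 0.0495), and its low array was bLR replicate 3 at 8.77.

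The calls changed when arrays were left out. Without bLR replicate 3 limma called 1 member, Psmd1, with a slope of -0.65 (adjusted p = 0.0034). The slopes of Psmd2 and Psmd11 were then -0.15 and -0.16, about as large as before, with larger errors (SE 0.054 and 0.063) and limma adjusted p of 0.130 and 0.173. Those of Psmd7 and Psmd8 were -0.12 and 0.19, and those of Psma7 and Psmb7 were -0.054 and 0.045. With the 3 arrays of low dap left out, limma called 0 members and 0 of the 9962 genes, of which 698 had an unadjusted p under 0.05. The slopes of Psmd1, Psmd2, Psmd11 and Psmd8 were then -0.62, -0.27, -0.20 and 0.31, with SE of 0.33, 0.18, 0.22 and 0.27, and those of Psmd7, Psma7 and Psmb7 were 0.041, -0.0046 and -0.11. Where along each transcript the probes lie was not analysed here, so its part in the slopes was not tested.

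**Figure D4:**
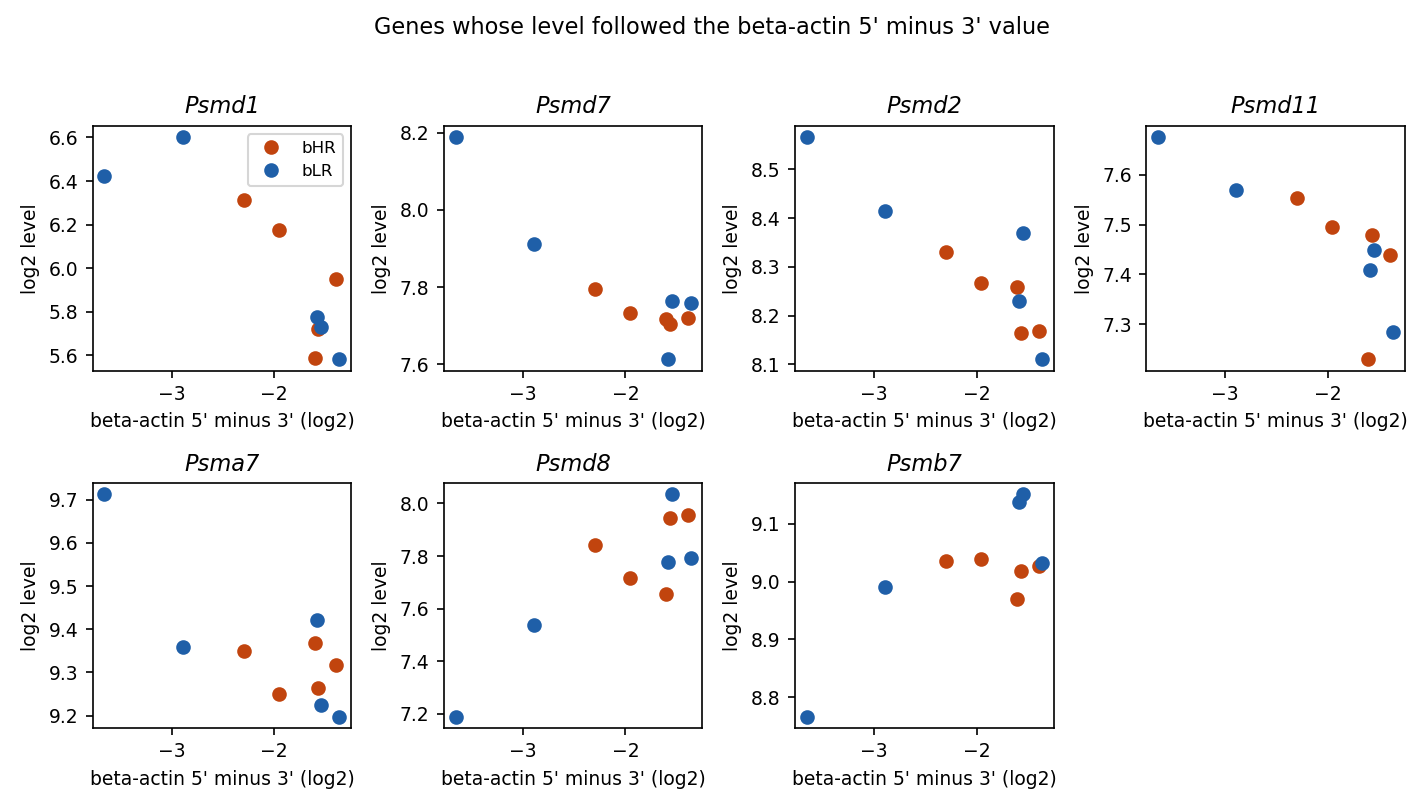
Log2 level of the 7 called proteasome genes against the beta-actin 5' minus 3' value of the same array (log2 units, further left is a deeper 5' loss) for 5 bHR and 5 bLR rats. The highest point of Psmd1 is bLR replicate 2, the highest of Psmd7, Psmd2, Psmd11 and Psma7 is bLR replicate 3 at the far left, and that array is the lowest point of Psmd8 and Psmb7.

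**Figure D5:**
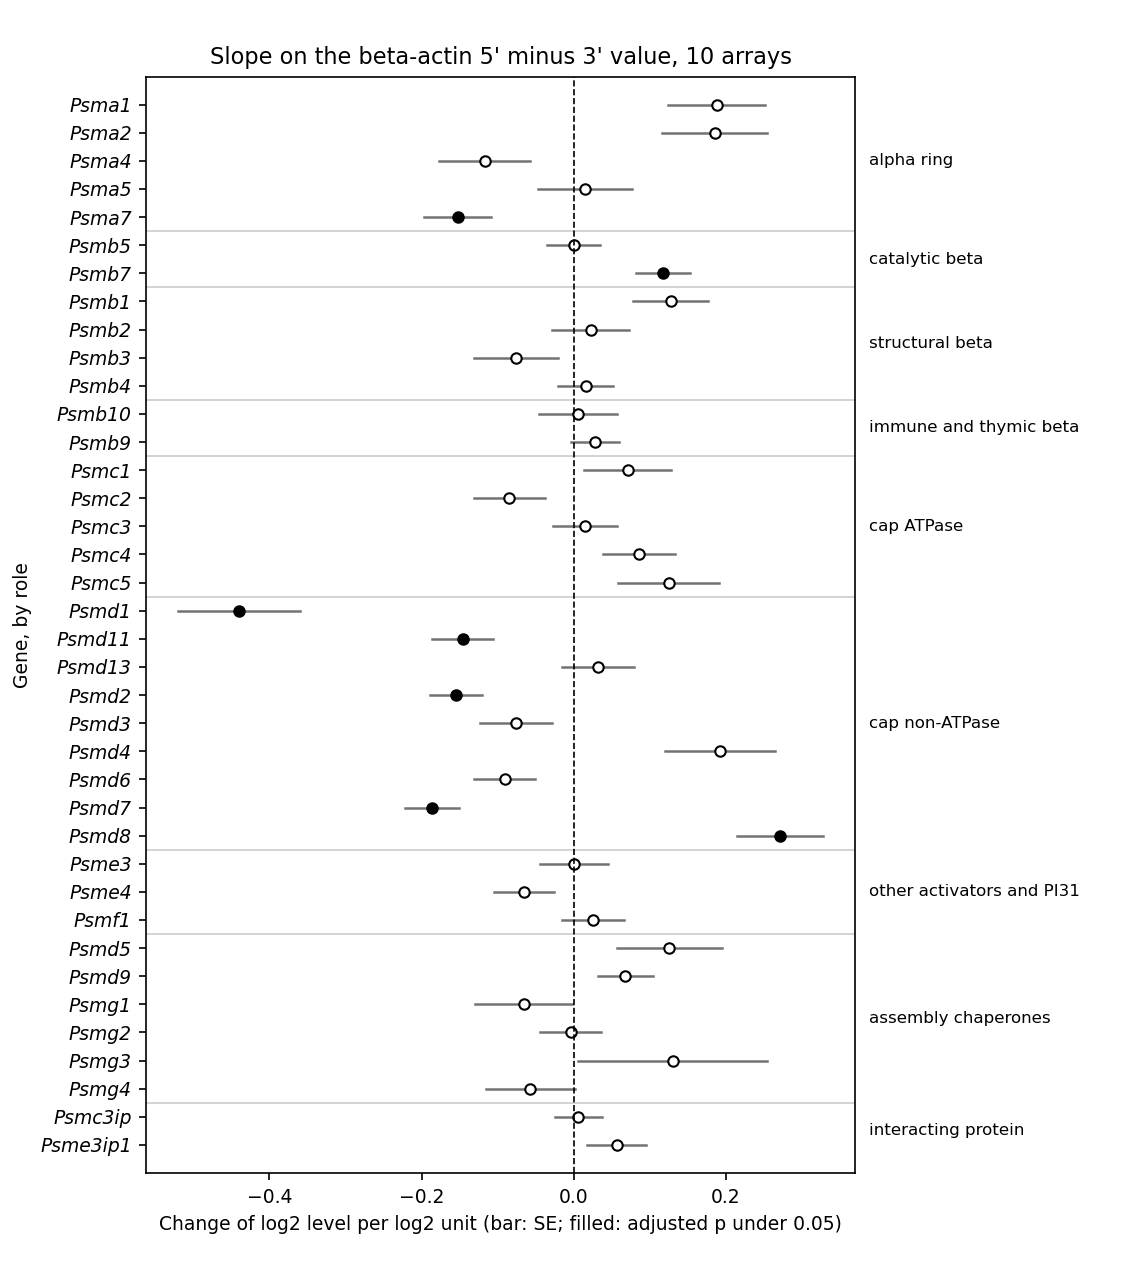
Slope of each proteasome gene on the beta-actin 5' minus 3' value (change of log2 level per log2 unit) with its SE, by role, filled where limma's adjusted p is under 0.05. The non-ATPase cap subunits hold the lowest slope (Psmd1, -0.44) and the highest (Psmd8, 0.27), and the slope of Psmb5 is -5.06e-05.

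The labels also give each rat's locomotor score, and the slope on it was fitted within lines. No member passed (0 of 38, limma adjusted p under 0.05), nor did any gene (0 of 9962). At an unadjusted limma p under 0.05 there were 2 members, where the background was 4.12% of genes. Psmb1 had a slope of 0.13 per 100 beam breaks (SE 0.041, limma adjusted p = 0.989) and Psma7 one of -0.11 (SE 0.047). The rat with the fewest beam breaks, bLR replicate 3 (319), also had the deepest beta-actin loss (-3.65). On its array Psmb1 was lowest (8.59) and Psma7 highest (9.71). Without it, 2 members had an unadjusted limma p under 0.05, 0 of them with a positive slope, where the background was 5.65% of genes. The part of the 5' loss in these slopes was not tested. In all, 19 members had a positive and 19 a negative slope, where 41.3% of all genes had a positive one.

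No gene that works with the proteasome passed in the line comparison. Of 35 listed partners, which supply, edit or deliver ubiquitin or regulate proteasome genes, 27 were measured, 16 with a higher and 11 with a lower mean in bHR, and 0 passed (median difference 0.0089). Ufd1, a cofactor of the unfolding enzyme Vcp, differed by 0.093, Ddi2, the protease that activates Nfe2l1, by -0.088 and Akirin2, which brings proteasomes into the nucleus, by 0.20. Nfe2l1 itself, the transcription factor that raises proteasome genes when activity falls short, differed by 0.033. On the beta-actin 5' minus 3' value 8 of the 27 partners had a called slope (29.6%, against 13.3% of all genes). Of these 5 were positive (18.5%, against 5.28%), Akirin2 among them with a slope of 0.38 (limma adjusted p = 9.8e-04), and 3 were negative (11.1%, against 7.98%).

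Promoter sequence is a feature that the rule did not use. Promoter windows from RefSeq (GRCr8) were found for 36 of the 38 members, and the 250 bases before each start were searched on both strands for 6 short motifs, chosen with results of these data known. TGACNNNGC, the core of the antioxidant response element that Nfe2l1 can bind, was in 5 of the 36 (13.9%), against 10.1% of all 33469 promoters. The CCAAT box was in 19 (52.8%), against 34.0%. The GC box GGGCGG was in 23 (63.9%), against 30.5%, and the ETS-type motif CCGGAAG in 11 (30.6%), against 7.27%. Of the interferon-type motifs, GAAA repeated after 2 further bases was in 4 (11.1%), against 3.41%, and TTCNNNGAA in 2 (5.56%), against 7.67%. The last reads the same on both strands. These shares describe letters only, and base composition was not matched.

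The windows with the antioxidant-type core are shown because their genes span the core (Psmb2, Psmb5), the cap (Psmd1), a chaperone (Psmd9) and an activator (Psme4). Their line differences can so be set beside them. The share of member promoters with this motif (13.9%) was near that of all promoters (10.1%). Each is written 5′ to 3′ on the strand of the gene, with the motif in capitals; in Psme4 and in the second Psmd9 window the motif lies on the other strand. In Psmb2 it overlaps a CCAAT box and a GC box.
Psmb2, chr5:144254964-144255023, plus strand: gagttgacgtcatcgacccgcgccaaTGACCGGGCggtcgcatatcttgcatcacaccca
Psmb5, chr15:32047406-32047465, minus strand: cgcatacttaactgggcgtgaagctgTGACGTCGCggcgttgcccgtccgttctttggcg
Psmd1, chr9:94157780-94157839, plus strand: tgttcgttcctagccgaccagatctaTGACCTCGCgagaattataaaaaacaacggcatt
Psmd9, chr12:39018308-39018367, minus strand: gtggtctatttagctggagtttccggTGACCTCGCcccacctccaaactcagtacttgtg
Psmd9 second, chr12:39018355-39018414, minus strand: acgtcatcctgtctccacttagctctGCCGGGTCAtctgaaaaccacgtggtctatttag
Psme4, chr14:108706562-108706621, plus strand: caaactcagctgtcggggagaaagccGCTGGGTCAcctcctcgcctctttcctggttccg
The bHR minus bLR differences of these 5 genes were 0.059, -0.0062, -0.074, 0.030 and 0.092 on the log2 scale in the order Psmb2, Psmb5, Psmd1, Psmd9, Psme4, and none passed.

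The immune subunits differ in these windows. Psmb10 has 2 copies of the spaced GAAA repeat within 73 bases of its start, shown in capitals because interferon regulatory factors are known to bind such repeats. Psmb9 has none in its window, which shares 44 bases with that of Tap1 on the opposite strand; the starts of the neighbouring genes are 457 bases apart.
Psmb10, chr19:50743298-50743377, minus strand: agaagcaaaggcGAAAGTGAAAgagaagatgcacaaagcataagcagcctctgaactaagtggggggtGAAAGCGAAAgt
Psmb9 and Tap1 shared, chr20:4668750-4668793, plus strand: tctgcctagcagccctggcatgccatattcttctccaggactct
In the hippocampus of these rats Psmb10 had 6.00 ± 0.16 in bHR and 5.97 ± 0.061 in bLR, and Psmb9 had 4.55 ± 0.039 in bHR and 4.50 ± 0.068 in bLR (log2 level, SD over 5 arrays). Signals of different genes depend on their probes and do not rank these genes. The part of the repeats in these levels was not tested.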

How the data were processed

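RNA of 12 hippocampi was run on Affymetrix arrays. The authors deposited log2 levels from RMA (affy 1.54.0, as the submitters' processing notes list it), with probes assigned to Entrez genes by a custom definition, per the design text. The table holds 10019 probe sets; 57 controls were left out and 9962 genes tested. The RefSeq table of GRCr8 named 9831, and its symbols chose the members. Values of single probes were not used.

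The members and lists were chosen with earlier results of these data known. Genes were fitted with limma 3.58.1 in R 4.3.3 over all genes, with Benjamini-Hochberg adjustment, on the 10 passing arrays; replicates are numbered in accession order, and the number of arrays limits precision. Slopes on the locomotor score and on the beta-actin 5' minus 3' value had line as a term. Control values were compared by exact permutation tests in SciPy 1.17.1. Every member's difference is given. Values per array are given for the 2 members with the smallest p in each role group (1 in groups under 4), for immune and constitutive cutting subunits, and for members with a called beta-actin slope, which were added after their values were seen; of partner lists the 4 with the smallest p are given, except 1 gene that is not reported here. Tap1, Nfe2l1 and Psmb1 were also named after their values were seen. The fits were tested on simulated data with independent noise per gene and array, which held no array-wide quality differences such as those described above.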

Additional observations from a re-analysis of the deposited data

Results flagged for a closer look

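In 5 of 76 combinations of a member and a line, 1 of 5 rats stood far from the other 4; chance gives about 1 in 20. Psmb2 was 8.09 in bLR replicate 3, against 8.20 to 8.23 in the other bLR rats. Psme4 was 5.75 in bLR replicate 2, against 5.48 to 5.55. Psmf1 was 6.27 and Psmc3ip 4.61 in bLR replicate 6, against 5.99 to 6.05 and 4.70 to 4.74. Psmg3 was 6.26 in bHR replicate 4, against 5.42 to 5.64 in the other bHR rats.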

How the results depend on the processing

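No member passed in the bHR minus bLR comparison under any alternative run, nor on the locomotor score. The median difference of members, 0.011, ran from -0.0051 to 0.021 when 1 array was left out, and it was -0.065 with all 12 arrays. Each shift was smaller than the within-line SD of the median member level of single arrays (0.11). That SD is not the error of a difference between lines. The count of members called on the beta-actin value, 7, ran from 1 to 8 when 1 array was left out. It was 0 with all 12 arrays, 0 without the 3 arrays of low dap and 1, Psmg1, without the 2 arrays with the deepest beta-actin loss; the cause was not tested. Leaving out these 3 or 2 arrays for this count, and the GAPDH value, were chosen after seeing the data.

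The sign of the difference turned for 14 of 38 members with all 12 arrays, 15 without the 3 arrays of low dap, 10 with the beta-actin covariate, 2 with quantile normalization repeated, 4 with the replicate block and 1 to 11 when 1 array was left out. Of the 16 members that the naming rule gives per array, these turned, none past the threshold. With all 12 arrays the difference was -0.053 for Psmb2, -0.046 for Psmc3, -0.073 for Psme3ip1 and -0.080 for Psmb7. Without the 3 arrays of low dap it was -0.0034 for Psma1, -0.030 for Psmb2, 0.0065 for Psmd7 and -0.094 for Psmb7. With the beta-actin covariate it was -0.010 for Psme3ip1 and -0.050 for Psmb7, and with quantile normalization repeated it was 0.0070 for Psmb5. Leaving out 1 array gave -0.024 to 0.024 for Psmb5, -0.0011 to 0.11 for Psmb2, -0.021 to 0.042 for Psme3ip1, -0.036 to 0.073 for Psmb10 and -0.060 to 0.036 for Psmb7.

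The number in the sample titles was tried as a replicate block. The deviations of same-numbered rats had r = -0.334, 0.263 and 0.409 for numbers 9, 10 and 11. For numbers 10 and 11 no other bLR rat had a higher r with the bHR rat, and for number 9 another did (0.412). Only these numbers occurred in both lines among the passing arrays, too few to decide whether the numbers pair the samples. With the block the line difference therefore came only from the rats numbered 9, 10 and 11. In that fit 0 members were called, the smallest limma adjusted p was 0.185 and the median difference was 0.012. An unadjusted limma p under 0.05 was found for 5 members, where 14.7% of genes had one. Of all genes 1468 had an unadjusted p under 0.05 with the block, against 293 without it. That number was 42 with all 12 arrays and 181 to 604 when 1 array was left out.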
